A study of Mus musculus with 32 samples.

Results

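10 genes of the CC chemokine family were followed after experimental stroke in mouse brain: Ccl2, Ccl3, Ccl4, Ccl5, Ccl6, Ccl7, Ccl8, Ccl9, Ccl12 and Ccl24. They were taken by gene name from 2 tables of read counts, one for whole brain tissue and one for sorted macrophages, and make up 10 of the 33280 genes in each table. All 10 passed the filter on summed counts in both tables.

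The mice were adult C57BL/6JCrl wild-type (WT) animals of both sexes, 4 in each treatment group. Control (CTL) mice received the vehicle, hydroxypropyl-β-cyclodextrin, and BLZ945 mice received BLZ945 at 200 mg per kg body weight by oral gavage for 7 days. BLZ945 inhibits CSF1R, the receptor on which microglia and CNS-associated macrophages (CAMs) depend, so that these cells are lost and then return. After 8 weeks every mouse in both groups had a stroke, made by injecting thrombin to clot the middle cerebral artery, and the brain was taken 1 day later. From each mouse the ipsilateral (lesioned) and the contralateral hemisphere gave a whole-tissue library and a library of sdCAMs, the CAMs below the dura, which are the macrophages around vessels and in the leptomeninges, sorted as CD206+ CD11b+ CD45+ cells that lacked CD11c, Ly6G and Ly6C after the choroid plexus had been removed. The contralateral hemisphere of the same animals is the reference, and mice without stroke were not analysed here. Mice are named here as in the labels, A2, A3, A4 and B1 for CTL and C2, C3, C4 and D1 for BLZ945.

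CC chemokines are small secreted proteins that guide leukocytes along a concentration gradient by binding G-protein-coupled receptors of the CCR family. Ligands of CCR2, such as Ccl2, are known for drawing monocytes out of blood, ligands of CCR1 attract monocytes, macrophages and T cells, and ligands of CCR3 attract eosinophils. In the injured brain they are known as products of microglia, macrophages, astrocytes and endothelial cells.

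The genes lie in clusters. In the GENCODE M21 annotation of GRCm38, Ccl2, Ccl7, Ccl12 and Ccl8 follow each other on the plus strand of chromosome 11 between 82035571 and 82116799. Ccl5, Ccl9, Ccl6 and Ccl3, all on the minus strand, and Ccl4, on the plus strand, lie on the same chromosome between 83525778 and 83664683. Ccl24 lies apart, on the minus strand of chromosome 5 from 135569937 to 135573049. No exon of a member overlaps an exon of another gene in that annotation.

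Promoter windows of 300 bases, from 250 before to 50 after the gene start, were taken from RefSeq on GRCm38.p6, where 5 of the 10 members had one (Ccl3, Ccl6, Ccl8, Ccl9 and Ccl12). The windows of Ccl12, Ccl8 and Ccl9 are printed 5′ to 3′ on the strand of the gene because Ccl12 had the highest level per length, Ccl8 was the member that rose in sdCAMs of BLZ945 mice, and Ccl9 was the member with a motif match. Capitals mark matches to a motif.
Ccl12, chr11:82101595-82101894, plus strand: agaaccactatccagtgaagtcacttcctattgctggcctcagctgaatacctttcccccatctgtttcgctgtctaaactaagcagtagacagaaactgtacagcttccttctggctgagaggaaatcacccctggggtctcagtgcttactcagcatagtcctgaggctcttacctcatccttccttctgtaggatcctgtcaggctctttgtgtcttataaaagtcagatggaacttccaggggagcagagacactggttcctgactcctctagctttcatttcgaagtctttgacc
Ccl8, chr11:82114935-82115234, plus strand: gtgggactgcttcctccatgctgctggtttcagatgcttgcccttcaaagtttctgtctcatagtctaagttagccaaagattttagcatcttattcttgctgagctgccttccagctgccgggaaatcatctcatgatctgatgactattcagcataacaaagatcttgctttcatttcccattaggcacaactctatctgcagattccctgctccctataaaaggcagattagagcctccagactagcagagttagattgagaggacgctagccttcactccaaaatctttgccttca
Ccl9, chr11:83578587-83578886, minus strand: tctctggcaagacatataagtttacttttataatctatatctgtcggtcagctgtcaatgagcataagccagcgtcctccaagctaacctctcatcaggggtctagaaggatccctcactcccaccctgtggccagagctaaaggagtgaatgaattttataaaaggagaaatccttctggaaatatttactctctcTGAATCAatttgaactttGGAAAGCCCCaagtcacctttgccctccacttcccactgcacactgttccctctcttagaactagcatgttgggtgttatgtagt

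The windows were searched on both strands for the NF-kappaB consensus, the AP-1 motif TGANTCA and the interferon response element TTTCNNTTTC. Ccl9 held an NF-kappaB match 35 bases before its start and an AP-1 match 53 bases before it, the latter read on both strands as the motif is its own reverse complement, and the 2 do not overlap. The windows of Ccl3, Ccl6, Ccl8 and Ccl12 held none of the 3 motifs. Among 32851 promoter windows of the same length, 4.51% held NF-kappaB, 7.81% AP-1, 3.44% the interferon element and 14.9% any of them. A match describes the letters of the window and is not evidence of binding.

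Tissue libraries held 9288717 to 12781505 counts each and the sdCAM libraries analysed 7397393 to 11081409. Levels are given as CPM, counts per 1000000 after TMM scaling, and the floor of 3 counts lay between 0.234 and 0.321 CPM in tissue and between 0.253 and 0.389 in sdCAMs, which covers counting error only. The ipsilateral sdCAM libraries of A3 and C2 were labelled as degraded RNA, held 54055 and 55155 counts, and were left out. For the tissue of A3, the sample titles and the column names of the table give opposite hemispheres. The title was followed, so that the library numbered 19 is ipsilateral, and the results with the hemispheres of A3 exchanged stand beside those they change.

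The sdCAM libraries held the markers of border macrophages, with 10 of 10 listed genes above 0 in each group and summed levels between 4290 and 17143 CPM. Their median sum was 7367 CPM contralaterally and 12390 CPM ipsilaterally in CTL. In BLZ945 it was 6403 and 13120 CPM, and the hemispheres overlapped in both treatments. Microglia markers (7 of the 8 listed genes were in the table) summed to 6039 to 26656 CPM, more than the border macrophage markers in every library but those of D1. The microglia medians were 14899 CPM contralaterally and 20608 CPM ipsilaterally in CTL, and 9254 and 16273 CPM in BLZ945, also with overlap. Among genes picked here to check the sort, Mrc1, which encodes CD206, averaged 1743 ± 589 CPM (SD, n = 3) and the microglia gene P2ry12 4536 ± 2274 CPM (SD, n = 3) in ipsilateral CTL libraries. Endothelial markers (6 of 6 above 0 in each group) summed to 677 to 1845 CPM contralaterally and 62.3 to 129 CPM ipsilaterally in CTL, and to 1080 to 1747 CPM and 44.6 to 66.5 CPM in BLZ945. Choroid plexus markers (4 of 4 above 0 in each group) ranged from 24.5 to 8954 CPM contralaterally and from 0.502 to 373 CPM ipsilaterally in CTL, and from 1412 to 37286 CPM and from 195 to 1502 CPM in BLZ945. These shares, of macrophages as of other cells, differed between hemispheres in the same libraries as the chemokines. Their part in the sdCAM results below was not tested.

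The first comparison asked which members differed between the lesioned and the contralateral hemisphere in whole tissue. Ccl2, Ccl3, Ccl4, Ccl9 and Ccl12 rose in CTL mice, and these genes together with Ccl6 and Ccl7 rose in BLZ945 mice. That is 5 of 10 members in CTL, where 0.443% of all 18968 genes tested rose, and 7 of 10 in BLZ945, where 1.12% rose. No member fell. The median log2 fold change of the members was 2.61 in CTL and 3.49 in BLZ945, against -0.01 and -0.00 over all genes, and both medians are the same with Ccl4 in CTL at its lower bound. The sum of the 10 members was between 19.7 and 54.5 CPM in ipsilateral and between 3.51 and 5.10 CPM in contralateral CTL tissue, and between 23.2 and 66.0 CPM and between 2.82 and 6.54 CPM in BLZ945. A gene was called at an adjusted p (Benjamini-Hochberg) under 0.05 in edgeR's quasi-likelihood test with a log2 fold change beyond 0.59.

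**Figure D1:**
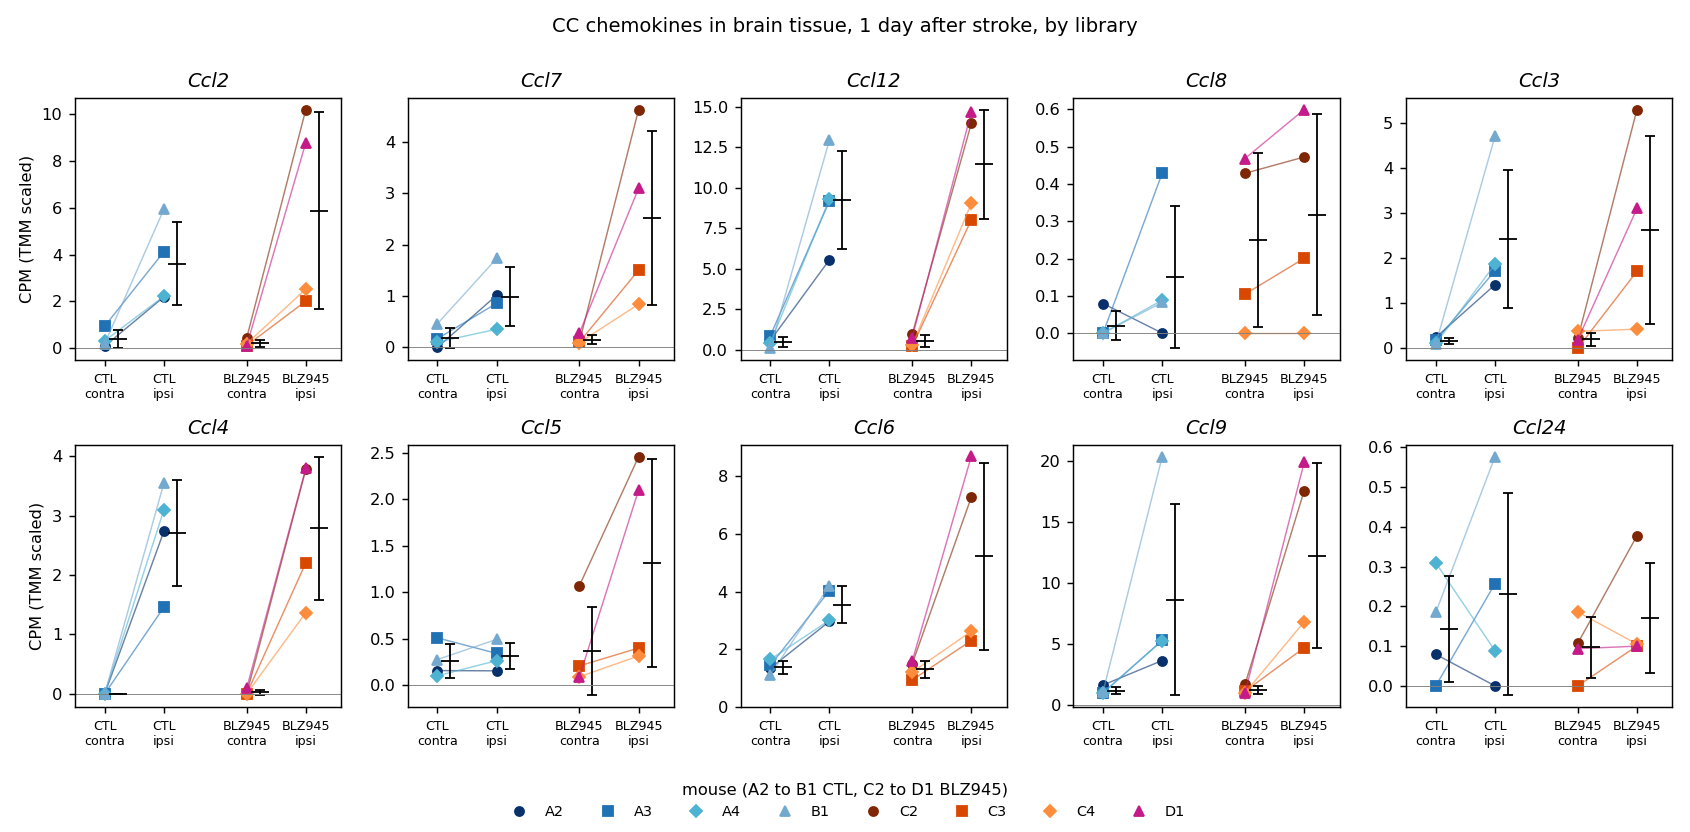
CPM of the 10 members in each of the 16 whole-tissue libraries on a linear axis, by treatment and hemisphere, with the group mean and SD. Ccl2, Ccl3, Ccl4, Ccl6, Ccl9 and Ccl12 were higher in every ipsilateral than in every contralateral library of the same treatment, Ccl7 was so in BLZ945, and Ccl5, Ccl8 and Ccl24 overlapped. The share of all genes so separated was not counted.

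Ccl12 (MCP-5) is a ligand of CCR2. In CTL it was at 5.54 (A2), 9.17 (A3), 9.29 (A4) and 12.9 (B1) CPM ipsilaterally and at 0.555, 0.850, 0.413 and 0.0925 CPM contralaterally. BLZ945 mice had 13.98 (C2), 8.02 (C3), 9.04 (C4) and 14.7 (D1) CPM ipsilaterally and 0.964, 0.209, 0.279 and 0.749 CPM contralaterally. The hemispheres were far apart in all 8 mice and in both treatments. The log2 fold change was 4.21 (SE 0.442, 95% interval 3.28 to 5.15, adjusted p = 1.21e-04) in CTL and 4.36 (SE 0.442, 3.43 to 5.29, adjusted p = 6.24e-05) in BLZ945, 18.6-fold and 20.5-fold.

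Ccl2 (MCP-1), the best-known monocyte attractant, was at 2.19, 4.12, 2.21 and 5.93 CPM in ipsilateral and at 0.0793, 0.935, 0.309 and 0.185 CPM in contralateral CTL tissue (A2, A3, A4, B1). In BLZ945 mice it was at 10.2, 2.01, 2.52 and 8.79 CPM ipsilaterally and at 0.429, 0.105, 0.186 and 0.0936 CPM contralaterally (C2, C3, C4, D1). Ipsilateral C2 and D1 lay above every CTL library, C3 lay just under and C4 near the bottom of the CTL range, and the hemispheres did not overlap. Its log2 fold change was 3.22 (SE 0.667, 1.81 to 4.62, adjusted p = 0.0399) in CTL and 4.81 (SE 0.740, 3.25 to 6.37, adjusted p = 0.00208) in BLZ945.

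Ccl7 (MCP-3) was at 1.02, 0.857, 0.354 and 1.73 CPM ipsilaterally and at 0, 0.170, 0.103 and 0.462 CPM contralaterally in CTL. The BLZ945 libraries held Ccl7 at 4.63, 1.504, 0.841 and 3.10 CPM ipsilaterally and at 0.107, 0.105, 0.0930 and 0.281 CPM contralaterally. A4 ipsilateral lay under B1 contralateral, so the CTL hemispheres overlapped, while those of BLZ945 did not. The log2 fold change of 2.39 in CTL (SE 0.738, 0.84 to 3.95) had an adjusted p of 0.360 and that of 3.99 in BLZ945 (SE 0.740, 2.43 to 5.55) an adjusted p of 0.00855.

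Ccl8 (MCP-2) was at or near the floor in tissue. The CTL libraries held 7 counts ipsilaterally and 1 contralaterally in all, and the highest of all 16 libraries was D1 ipsilateral at 0.599 CPM. BLZ945 mice had 0.472, 0.201, 0 and 0.599 CPM ipsilaterally and 0.429, 0.105, 0 and 0.468 CPM contralaterally. The hemispheres overlapped in both treatments, and no difference was detectable at this depth.

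Ccl4 (MIP-1β), known as an attractant of macrophages and T cells, was nearly restricted to the lesioned side in these counts. It was at 2.73, 1.46, 3.10 and 3.54 CPM in ipsilateral CTL tissue and at 0 in all 4 contralateral libraries, which makes it at least 10.03-fold higher against the floor of 3 counts per library (adjusted p = 5.90e-04). In BLZ945 it was at 3.78, 2.21, 1.37 and 3.80 CPM ipsilaterally, and 1 read was counted contralaterally, in D1. The 113 ipsilateral counts against that 1 give a ratio of 118 with an exact 95% counting interval from 20.7 to 4698 (adjusted p in edgeR 4.03e-04).

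Ccl3 (MIP-1α), a ligand of CCR1, was at 1.41, 1.71, 1.86 and 4.70 CPM ipsilaterally and at 0.238, 0.170, 0.103 and 0.0925 CPM contralaterally in CTL. Ccl3 in BLZ945 mice was at 5.29, 1.70, 0.420 and 3.10 CPM ipsilaterally and at 0.214, 0, 0.372 and 0.187 CPM contralaterally. The hemispheres did not overlap, but C4 was at 0.420 CPM ipsilaterally and at 0.372 contralaterally, a log2 ratio of 0.18 within that mouse. Fitted log2 fold changes were 3.87 (SE 0.752, 2.28 to 5.46, adjusted p = 0.0270) in CTL and 3.67 (SE 0.741, 2.10 to 5.23, adjusted p = 0.0161) in BLZ945.

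Ccl5 (RANTES), known as a T cell product, did not pass the test. It was at 0.156, 0.343, 0.265 and 0.494 CPM ipsilaterally and at 0.159, 0.510, 0.103 and 0.277 CPM contralaterally in CTL, which overlap throughout. Among BLZ945 mice it was at 2.46, 0.401, 0.315 and 2.10 CPM ipsilaterally and at 1.07, 0.209, 0.0930 and 0.0936 CPM contralaterally. Ipsilateral C2 and D1 stood well above the other ipsilateral libraries. Its log2 fold change was 0.23 (-1.61 to 2.07, adjusted p = 0.999) in CTL and 1.86 (0.23 to 3.49, adjusted p = 0.370) in BLZ945.

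Ccl9 (MIP-1γ) and Ccl6 are both ligands of CCR1, and every contralateral library held reads of each. Ccl9 was at 3.67, 5.32, 5.31 and 20.4 CPM in ipsilateral CTL and at 17.6, 4.71, 6.83 and 19.9 CPM in ipsilateral BLZ945 tissue, against 1.02 to 1.66 CPM and 1.02 to 1.71 CPM contralaterally. B1, C2 and D1 stood apart at the top, and the lowest ipsilateral library was still above every contralateral one. Its log2 fold change was 2.82 (SE 0.565, 1.63 to 4.01, adjusted p = 0.0324) in CTL and 3.32 (SE 0.574, 2.10 to 4.53, adjusted p = 0.00522) in BLZ945.

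Ccl6 was at 2.97, 4.03, 3.01 and 4.20 CPM ipsilaterally and at 1.35, 1.44, 1.65 and 1.11 CPM contralaterally in CTL. BLZ945 mice had Ccl6 at 7.27, 2.31, 2.63 and 8.69 CPM ipsilaterally and between 0.941 and 1.59 CPM contralaterally. The hemispheres were separate in both treatments. Its log2 fold change of 1.35 in CTL (SE 0.378, 0.55 to 2.15) had an adjusted p of 0.239, and with the mouse as a block it was 1.34 with an adjusted p of 0.0180, which passed. In BLZ945 it was 1.99 (SE 0.382, 1.18 to 2.79, adjusted p = 0.0115). With the block 6 of 10 members rose in CTL, where 0.938% of all genes did, and 7 of 10 in BLZ945, where 1.99% did.

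Ccl24, a CCR3 ligand known as eotaxin-2, was near the floor in tissue, at 0 to 0.577 CPM in CTL and 0 to 0.378 CPM in BLZ945. Its hemispheres overlapped in both treatments. Within single mice, Ccl2, Ccl3, Ccl4, Ccl6, Ccl7, Ccl9 and Ccl12 were higher on the lesioned side in 8 of 8 mice by CPM, Ccl5 and Ccl8 in 6 and Ccl24 in 5. The share of all genes with 1 direction in every mouse was not counted. Ccl8 was at 0 on both sides in C4. In whole tissue, more cells of a type and more RNA per cell cannot be told apart.

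The tissue calls rested on the reading of A3 and on single mice. With the hemispheres of A3 exchanged, no member passed in either treatment by edgeR, with log2 fold changes in CTL of 1.46 for Ccl12, 2.61 for Ccl4, 1.24 for Ccl2, 1.87 for Ccl3 and 1.72 for Ccl9 (adjusted p = 1), and in BLZ945 of 4.81 for Ccl2 (adjusted p = 0.0879) and 4.36 for Ccl12 (adjusted p = 0.0942). With A3 exchanged edgeR held, at an unadjusted p under 0.05, 547 and 1971 of all genes in the 2 treatments. Without A3, or without A2, A4 or B1, Ccl4 and Ccl12 were called in CTL and Ccl2, Ccl3 and Ccl9 were not, and without D1 Ccl4, Ccl9 and Ccl12 were. Without C2 or without D1, Ccl2, Ccl4 and Ccl12 were called in BLZ945.

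The monocyte marker sum moved with the members in tissue. In CTL the sum (8 of 8 listed genes in the table) was 131 to 162 CPM ipsilaterally and 80.3 to 110.3 CPM contralaterally. Ly6c2 and F10 were at 0 in contralateral CTL libraries. In BLZ945 the sum was 149 to 230.2 CPM and 89.6 to 110.1 CPM. Only 3 of the 8 genes had counts in contralateral A2, B1, C2 and C3, so few genes carried the whole sum there. Border macrophage markers (10 genes) summed to 15.3 to 23.96 CPM and 12.4 to 17.6 CPM in CTL, with Folr2 at 0 ipsilaterally, and to 22.3 to 40.6 CPM and 10.1 to 19.6 CPM in BLZ945. Microglia markers overlapped, at 179 to 222 CPM over all ipsilateral and 186 to 213 CPM over all contralateral libraries. Astrocyte markers (5 of 5 above 0) summed to 1447 to 1771 CPM and 987 to 1364 CPM in CTL, and to 1647 to 2018 CPM and 1154 to 1330 CPM in BLZ945. Neutrophil markers (8 of 8 in the table) summed to 5.00 to 9.80 CPM ipsilaterally and 6.02 to 6.94 CPM contralaterally in CTL. There Ly6g was at 0 on both sides, Camp ipsilaterally and Cxcr2 contralaterally. In BLZ945 the sum was 5.21 to 9.57 CPM and 4.71 to 7.63 CPM, with Ly6g, Retnlg, Cxcr2 and Mmp8 at 0 contralaterally. In contralateral C2, 1 gene carried the whole sum. The part of these cell types in the chemokine differences was not tested.

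**Figure D2:**
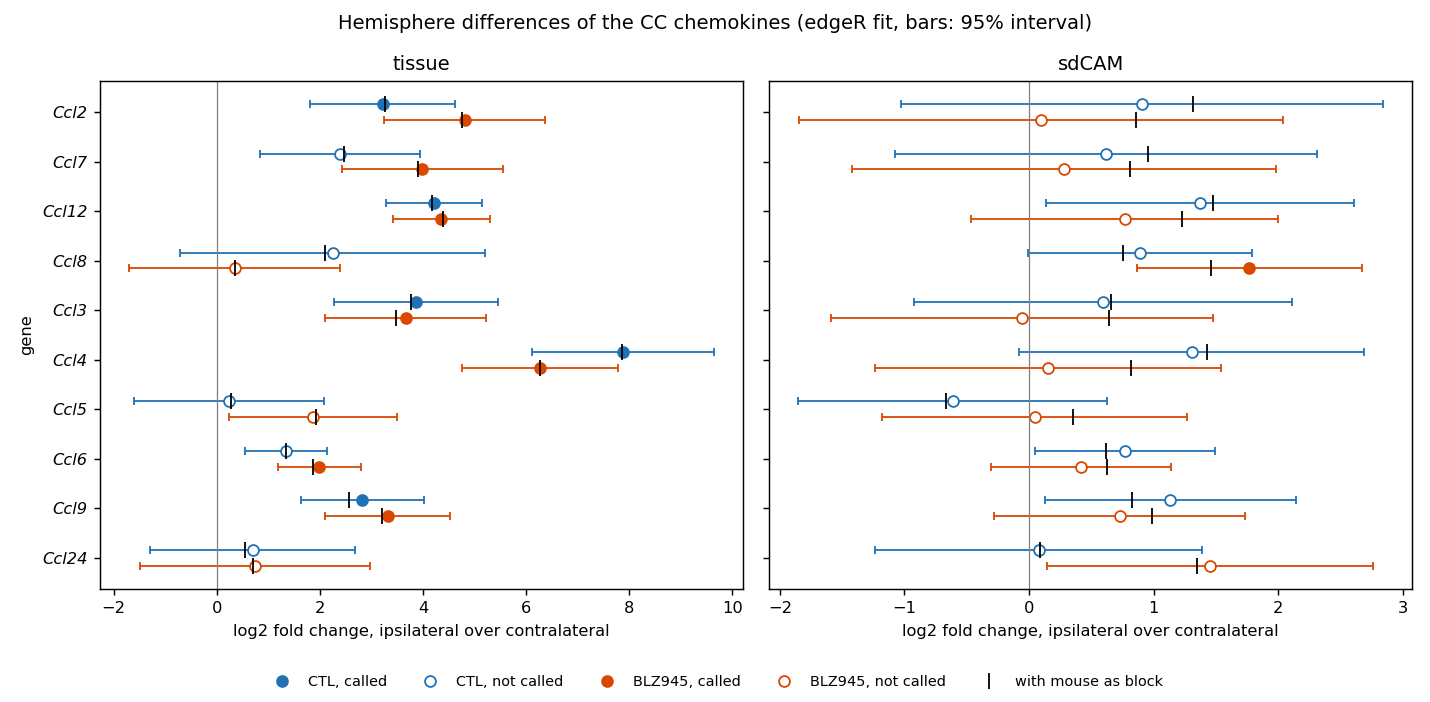
Fitted log2 fold change of ipsilateral over contralateral for each member, with 95% intervals from edgeR, in tissue and sdCAMs of CTL and BLZ945 mice. Filled points passed the test, 5 in CTL tissue, 7 in BLZ945 tissue and Ccl8 alone in BLZ945 sdCAMs, and black ticks give the fit with the mouse as a block. The value of Ccl4 in tissue has a contralateral group at or near 0 counts and depends on the prior count.

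Of the other genes of the pathway, few passed in tissue. Among the other CC ligands, 0 of 7 tested passed in CTL and 1 of 7 in BLZ945, the eosinophil attractant Ccl11 (eotaxin), with 62 counts ipsilaterally against 1 contralaterally, a ratio of 64.7 (exact counting interval 11.2 to 2596, adjusted p = 0.0245). Ccr1, the receptor of Ccl3, Ccl6 and Ccl9, rose in BLZ945 and was at 2.27 ± 0.970 CPM ipsilaterally and 0.2201 ± 0.244 CPM contralaterally (SD, n = 4), a log2 fold change of 3.29 (adjusted p = 0.0337). Ccr2, the receptor of Ccl2, Ccl7 and Ccl12 and named here after its values were seen, did not pass, at log2 fold changes of 2.92 (adjusted p = 0.570) and 2.22 (adjusted p = 0.338). In CTL, 1 of the other ligands had an unadjusted p under 0.05 in edgeR, as did 6.23% of all genes.

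Among cytokines known to induce CC ligands, 0 of 7 passed in CTL, where 6 had an unadjusted p under 0.05 in edgeR, and 2 of 7 passed in BLZ945. Il1b, the inflammatory cytokine IL-1β, rose by 4.23 on the log2 scale (adjusted p = 0.0391) and Csf1, the ligand of CSF1R, by 0.67 (adjusted p = 0.0445). With the block, Osm passed in CTL (adjusted p = 0.0453), with a contralateral group at 0 counts, and Il6 in BLZ945 (adjusted p = 0.0162), both named here after their values were seen. None of the other CC ligands or inducers fell. Among the NF-kappaB subunits and feedback genes, Bcl3, a nuclear IκB protein, rose in CTL (1 of 11, log2 fold change 2.10, adjusted p = 0.00311), and Bcl3 (3.03, adjusted p = 8.00e-05) and Nfkbiz (1.16, adjusted p = 0.0321) rose in BLZ945 (2 of 11).

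The order of the members was compared after dividing CPM by gene length. Divided by exon length in GENCODE M21, Ccl12 led in every group of both materials, with 17.2 ± 5.62 CPM per kb in ipsilateral CTL tissue and 2299 ± 1252 CPM per kb in ipsilateral CTL sdCAMs (SD, n = 4 and 3). In these CTL tissue libraries Ccl4 (4.10 CPM per kb), Ccl2 (3.17), Ccl3 (3.16) and Ccl9 (2.84) followed, and these neighbours differed by less than their spread. In ipsilateral CTL sdCAMs Ccl4 (1309 CPM per kb) and Ccl3 (477) followed, then Ccl6 (419.8), Ccl7 (353), Ccl2 (268), Ccl9 (246) and Ccl8 (227), whose ranges overlapped. Ccl24 (83.5 CPM per kb) and Ccl5 (34.9) were lowest, and Ccl5 was last in all 4 sdCAM groups. The 2 materials were counted in separate tables from different inputs, so their levels stand side by side without a test.

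**Figure D3:**
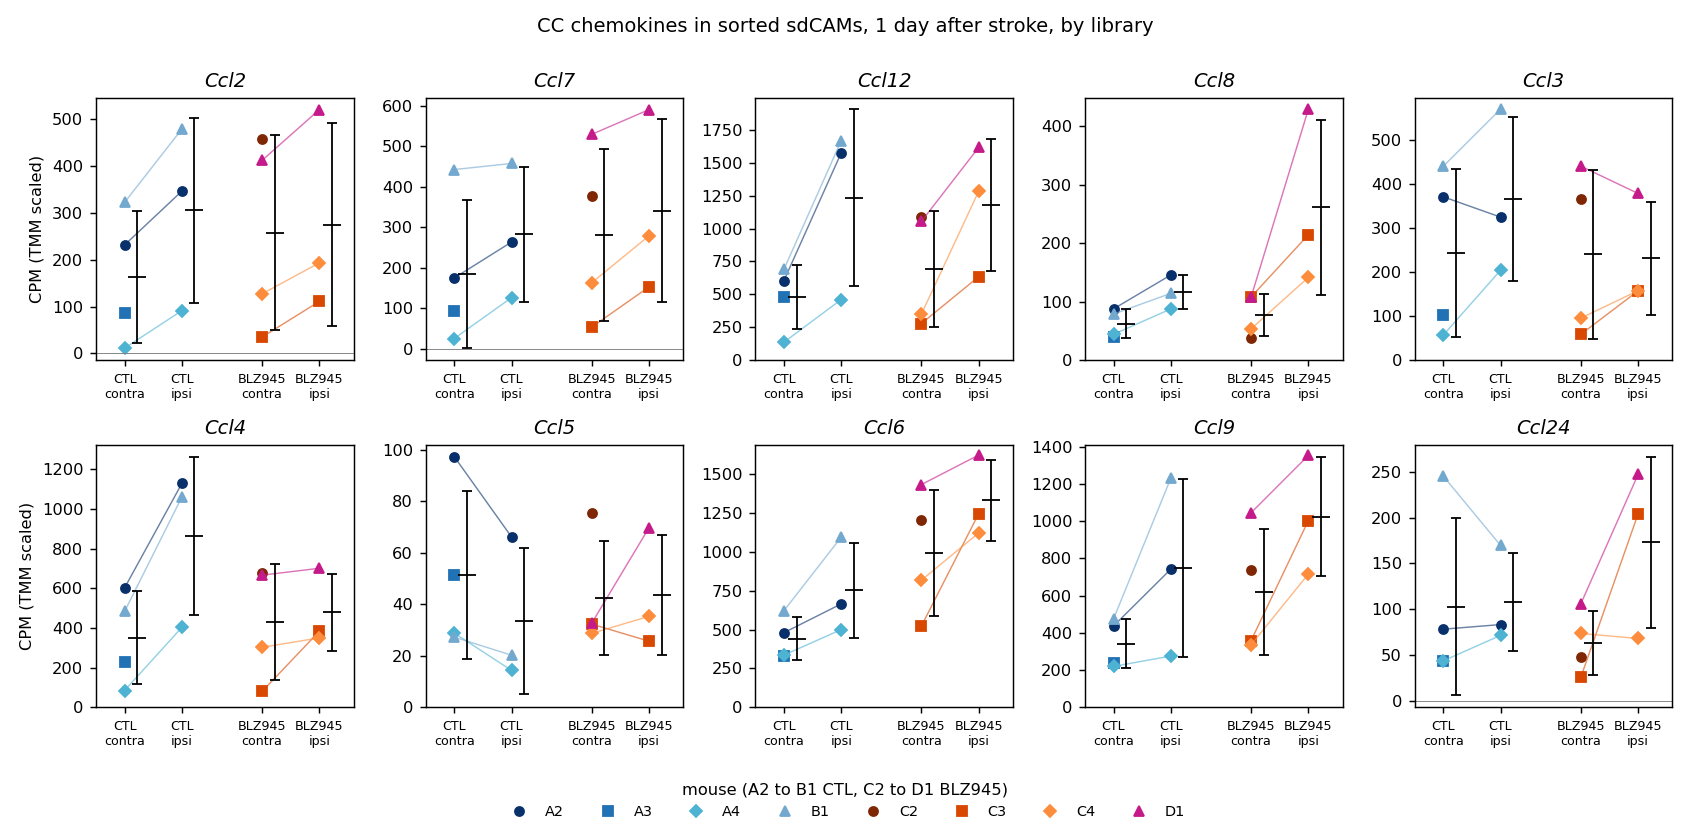
CPM of the 10 members in each of the 14 sdCAM libraries on a linear axis, by treatment and hemisphere, with the group mean and SD. Among the members, Ccl8 of BLZ945 mice is the only case where the ipsilateral libraries (142 to 429.6 CPM) lie apart from the contralateral ones (38.2 to 108 CPM). The share of all genes that lie apart was not counted.

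Between hemispheres, 0 of 10 members passed in sdCAMs of CTL mice by edgeR, where 0.426% of the 18297 genes tested rose and 2.36% fell, and 3 members (Ccl6, Ccl9 and Ccl12) had an unadjusted p under 0.05, as did 18.3% of all genes. DESeq2 also called none. In BLZ945 mice 1 of 10 rose, Ccl8, where 1.2% of all genes rose and 4.41% fell. The median log2 fold change of the members was 0.83 in CTL and 0.35 in BLZ945, against -0.11 and -0.15 over all genes. With the mouse as a block, Ccl12 passed in CTL (1 of 10, all genes 0.126%) and Ccl8 and Ccl12 in BLZ945 (2 of 10, all genes 1.46%).

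Ccl8 was at 215 (C3), 142 (C4) and 429.6 (D1) CPM in ipsilateral and at 38.2 (C2), 108 (C3), 53.5 (C4) and 108 (D1) CPM in contralateral sdCAMs of BLZ945 mice. In CTL it was at 146 (A2), 87.5 (A4) and 114 (B1) CPM ipsilaterally and at 87.7 (A2), 38.9 (A3), 44.1 (A4) and 78.8 (B1) CPM contralaterally. D1 ipsilateral was the highest of the 14 libraries, and only the BLZ945 hemispheres were separate. Ccl8 had a log2 fold change in BLZ945 of 1.77 (SE 0.425, 0.86 to 2.67, adjusted p = 0.0253, 3.41-fold) and in CTL of 0.89 (-0.01 to 1.79, adjusted p = 0.277). The call in BLZ945 was lost without any 1 of C2 (1.55, adjusted p = 0.0622), C3 (2.10, 0.0561), C4 (1.93, 0.0624) or D1 (1.42, 0.0996), and with the 2 degraded libraries added (1.41, 0.437). Without the 3 contralateral libraries highest in choroid plexus markers (A4, C3 and C4) it was 1.86 (adjusted p = 0.155), and scaled to macrophage and microglia markers 0.81 (adjusted p = 0.128).

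Ccl12 was at 1576 (A2), 460.1 (A4) and 1668 (B1) CPM ipsilaterally and at 604 (A2), 481 (A3), 136 (A4) and 689 (B1) CPM contralaterally in CTL. BLZ945 sdCAMs held Ccl12 at 635 (C3), 1284 (C4) and 1617 (D1) CPM ipsilaterally and at 1089 (C2), 278 (C3), 350.1 (C4) and 1055 (D1) CPM contralaterally. The groups overlapped, yet it was higher ipsilaterally in 6 of 6 mice, with log2 ratios between 0.62 and 1.87. Ccl12 had log2 fold changes of 1.37 (SE 0.582, 0.13 to 2.61, adjusted p = 0.225) in CTL and 0.77 (SE 0.580, -0.47 to 2.00, adjusted p = 0.458) in BLZ945. Within mice it was 1.47 (SE 0.249, adjusted p = 0.0142) and 1.23 (adjusted p = 0.0207). C2, whose ipsilateral library is left out, was the highest contralateral library of BLZ945.

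Ccl2 and Ccl7 spread more between mice than between hemispheres. Ccl2 was at 346 (A2), 91.2 (A4) and 478 (B1) CPM ipsilaterally and at 231 (A2), 86.0 (A3), 11.3 (A4) and 322 (B1) CPM contralaterally in CTL, and at 111 (C3), 193 (C4) and 519 (D1) CPM against 456 (C2), 34.9 (C3), 127 (C4) and 411 (D1) CPM in BLZ945. Both libraries of B1 and of D1 and the contralateral one of C2 were high. Between hemispheres the log2 fold change of Ccl2 was 0.91 (-1.03 to 2.84) in CTL and 0.09 (-1.85 to 2.04) in BLZ945, and that of Ccl7 0.62 (-1.08 to 2.31) and 0.28 (-1.42 to 1.98). Both were higher ipsilaterally in 6 of 6 mice, as were Ccl4, Ccl6, Ccl8, Ccl9 and Ccl12. The share of all genes that were so was not counted.

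Ccl4 was at 1129 (A2), 403 (A4) and 1059.8 (B1) CPM ipsilaterally against 84.1 to 601 CPM contralaterally in CTL, and at 383 (C3), 349.6 (C4) and 701 (D1) CPM against 79.5 to 676 CPM in BLZ945. The groups overlapped, and the log2 fold changes were 1.30 (-0.08 to 2.69, adjusted p = 0.300) and 0.15 (-1.24 to 1.54, adjusted p = 0.941). Ccl3 was at 204 to 569 CPM ipsilaterally and 56.5 to 439.5 CPM contralaterally in CTL, with log2 fold changes of 0.59 (-0.93 to 2.11) and, in BLZ945, -0.06 (-1.59 to 1.48). Ccl5 was the member with a negative value in CTL, at 66.1 (A2), 14.3 (A4) and 20.2 (B1) CPM ipsilaterally and 97.3 (A2), 51.5 (A3), 28.8 (A4) and 27.2 (B1) CPM contralaterally, a log2 fold change of -0.61 (-1.85 to 0.63, adjusted p = 0.615). It was lower ipsilaterally in 3 of 3 CTL mice and in 1 of 3 BLZ945 mice, and none of these differences passed.

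For the CCR1 ligands, Ccl6 was at 665, 499.9 and 1096 CPM ipsilaterally (A2, A4, B1) and 332 to 621 CPM contralaterally in CTL, a log2 fold change of 0.77 (0.05 to 1.49, adjusted p = 0.243), and 0.42 (-0.30 to 1.14) in BLZ945. Ccl9 was at 742, 275 and 1231 CPM ipsilaterally and 219 to 475 CPM contralaterally in CTL, a log2 fold change of 1.13 (0.12 to 2.14, adjusted p = 0.219), and 0.73 (-0.28 to 1.73) in BLZ945. Ccl24, near the floor in tissue, was at 83.3, 71.5 and 169.6 CPM ipsilaterally and 43.4 to 245 CPM contralaterally in CTL. BLZ945 mice had Ccl24 at 204 (C3), 68.2 (C4) and 247 (D1) CPM against 47.7 (C2), 25.6 (C3), 73.6 (C4) and 106 (D1) CPM, a log2 fold change of 1.45 (0.14 to 2.76, adjusted p = 0.180). C3 and D1 were high and C4 was not.

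Scaling changed directions in sdCAMs. Scaled to 17 border macrophage and microglia markers, the median log2 fold change of all genes was -0.66 in CTL and -1.25 in BLZ945, no member passed by edgeR, and in BLZ945 Ccl2, Ccl4, Ccl5, Ccl6, Ccl7, Ccl9 and Ccl12 turned negative, between -1.05 for Ccl5 and -0.27 for Ccl9 and Ccl12, beside Ccl3, which was negative under both scalings. At an unadjusted p under 0.05 edgeR then held 3549 and 7623 of all genes. Relative to that shift of all genes each of these 7 stayed above it.

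In sdCAMs, none of 8 other CC ligands, 11 inducing cytokines or 11 NF-kappaB genes tested passed in either treatment by edgeR, and at an unadjusted p under 0.05 they numbered 0, 1 and 2 in CTL and 2, 0 and 1 in BLZ945, where 18.3% and 22.3% of all genes had one.

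**Figure D4:**
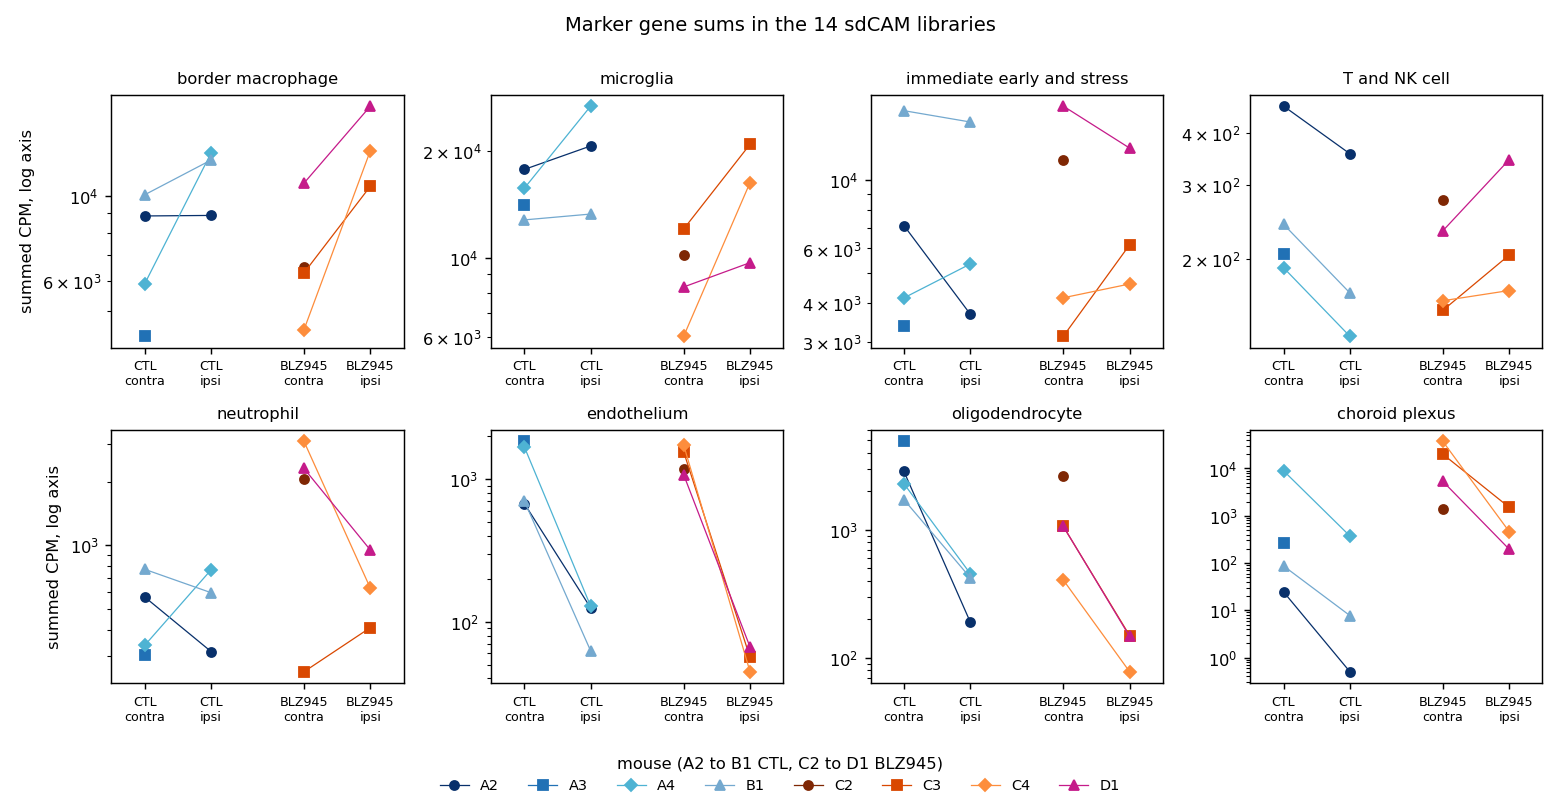
Summed CPM of marker lists in each of the 14 sdCAM libraries on a log axis, by treatment and hemisphere. Endothelial and oligodendrocyte sums are lower in every ipsilateral library than in every contralateral one of the same treatment, choroid plexus sums are lower ipsilaterally in each of the 6 mice with both libraries, and immediate early and stress genes are highest in B1, D1 and C2.

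Several members varied together across sdCAM libraries. Over the 14 libraries, which share mice and hemispheres, Pearson's r of log2 CPM was 0.97 for Ccl2 with Ccl7, 0.93 with Ccl4, 0.92 with Ccl12 and 0.91 with Ccl3, and 0.90 for Ccl6 with Ccl9. Ccl5 had r between -0.12 and 0.34 with the other 9. Of all genes with a mean of at least 1 CPM, those most like Ccl2 were Il1rn, the interleukin-1 receptor antagonist (r = 0.96), Gm6377 (0.92) and Phlda1 (0.91). Those most like Ccl5 were Nkg7, a gene of cytotoxic lymphocytes (0.89), Rpl21 (0.86) and Pdap1 (0.85), and those most like Ccl24 were Rbm33 (0.85), Atp2b1 (0.84) and Hus1 (0.84).

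Immediate early and stress genes, which dissociation is known to induce, summed to 15310 CPM ipsilaterally and 16652 CPM contralaterally in B1, to 12619.6 and 17229 CPM in D1, and to 11562 CPM in contralateral C2, and between 3130 and 7113 CPM in the other 9 libraries. As deviations from the group means over the 14 libraries, this sum had r = 0.93 with Ccl6, 0.88 with Ccl3, 0.73 with Ccl2 and -0.00 with Ccl5. The T and NK cell sum had r = 0.88 with Ccl5 on the same measure, and also 0.73 with Ccl4 and 0.65 with Ccl2 and with Ccl12. The choroid plexus sum had -0.89 with Ccl12, -0.82 with Ccl2 and -0.79 with Ccl5. The monocyte sum had 0.79 with Ccl6, 0.72 with Ccl2, 0.71 with Ccl3 and 0.36 with Ccl5. These members thus went with more than 1 list. The part of these genes in the chemokine levels was not tested.

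Across the 16 tissue libraries, which share mice, hemispheres and the lesion, the genes most like Ccl2 were Lcp1, an actin-bundling protein of leukocytes (r = 0.97), Plek (0.96) and Sbno2 (0.96). For Ccl5 they were Cp, ceruloplasmin (0.83), H2-D1, an MHC class I gene (0.83), and Ninj1 (0.82), and for Ccl24 Elmo1 (0.83), Uqcrfs1 (0.81) and Trap1 (0.80). Ccl4 and Ccl12 had r = 0.96. The monocyte marker sum had r = 0.91 with Ccl2 and 0.92 with Ccl9 and with Ccl12, and as deviations from the group means 0.58, 0.60 and 0.59. On the first of these measures the astrocyte sum had r = 0.86 with Ccl2, 0.85 with Ccl9 and 0.90 with Ccl12, the border macrophage sum 0.84, 0.77 and 0.79, and the neutrophil sum 0.58, 0.66 and 0.51. On that measure the T and NK cell sum had r = 0.05 with Ccl5. Few genes carried that sum in some libraries. In contralateral A4 it was 50.5 CPM with 2 of 10 genes counted, and in ipsilateral C2 16.2 CPM with 10 of 10. With Ccl2, Ccl9 and Ccl12 the endothelial sum had r = 0.72, 0.70 and 0.61, and as deviations 0.74, 0.64 and 0.61. The oligodendrocyte sum had 0.16, 0.19 and 0.05, and as deviations 0.66, 0.79 and 0.61. As deviations the astrocyte sum had 0.43, 0.39 and 0.66, the border macrophage sum 0.68, 0.35 and 0.53, and the neutrophil sum 0.38, 0.59 and 0.23. In deviations the monocyte sum was thus not the one closest to these members.

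The last comparison asked whether the members differed between BLZ945 and CTL mice. No gene passed by edgeR in tissue or sdCAMs of either hemisphere, nor in the interaction of treatment and hemisphere (0% of 18968 and of 18297 genes each). With an unadjusted p under 0.05, edgeR held 858 genes in ipsilateral tissue, 616 in contralateral tissue and 386 in the tissue interaction, and 1034, 1133 and 912 in sdCAMs. DESeq2 called no member in any of them. Over all genes it called 1 in ipsilateral tissue and none in the other tissue comparisons, and in sdCAMs 35 up and 88 down ipsilaterally, 31 up and 8 down contralaterally and 12 up and 36 down in the interaction.

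**Figure D5:**
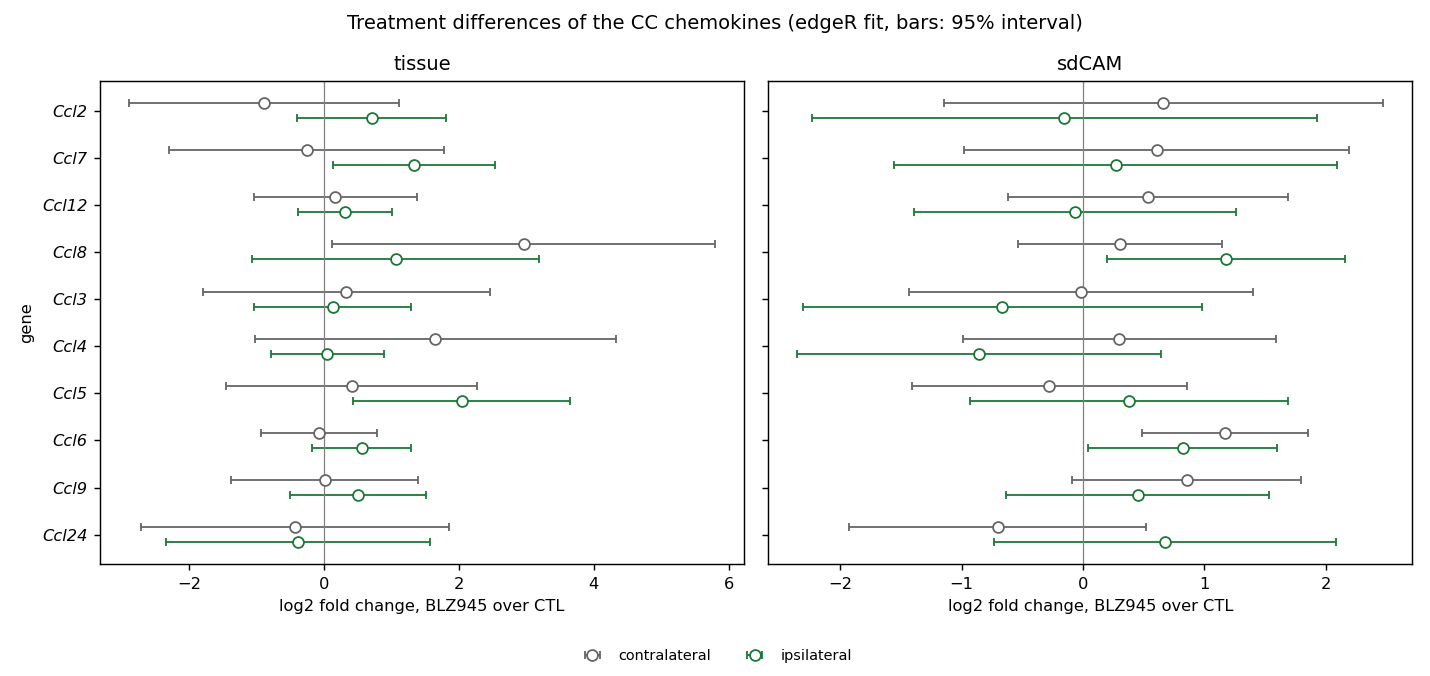
Fitted log2 fold change of BLZ945 over CTL for each member with 95% intervals from edgeR, in the ipsilateral and contralateral hemisphere of tissue and sdCAMs. No member passed the test, and the contralateral tissue values of Ccl3, Ccl4, Ccl7, Ccl8 and Ccl24 rest on at most 5 counts a library.

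In ipsilateral tissue the widest differences were those of Ccl5 and Ccl7. Ccl5 was at 1.32 ± 1.12 CPM in BLZ945 and 0.315 ± 0.142 CPM in CTL (SD, n = 4), a log2 fold change of 2.04 (0.43 to 3.65, unadjusted p = 0.0162 and adjusted p = 0.958 by edgeR). Ccl7 was at 2.52 ± 1.70 CPM and 0.989 ± 0.569 CPM, a log2 fold change of 1.34 (0.14 to 2.54, unadjusted p = 0.0312 and adjusted p = 0.958 by edgeR). Both rested on C2 and D1, which lay above every CTL library, while C3 and C4 lay within the CTL range. T and NK cell markers summed to 16.2 to 45.3 CPM in these BLZ945 and 7.96 to 39.1 CPM in these CTL libraries, where Klrd1 and Ncr1 were at 0. Only 2 of the 10 genes had counts in C3, so few genes carried the sum there. The part of these cells in Ccl5 was not tested. For Ccl4 the log2 fold change was 0.04 (-0.79 to 0.88), for Ccl12 0.31 (-0.39 to 1.01), for Ccl3 0.13 (-1.04 to 1.29), for Ccl9 0.50 (-0.51 to 1.51), for Ccl6 0.56 (-0.18 to 1.29) and for Ccl2 0.70 (-0.40 to 1.81).

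In contralateral tissue most members were close to the floor in both treatments. Ccl6 and Ccl9, above the floor in every library, had log2 fold changes of -0.08 (-0.94 to 0.79) and 0.01 (-1.38 to 1.39). Ccl8 was at 0.429, 0.105, 0 and 0.468 CPM in BLZ945 and at 0.0793 CPM in A2 and 0 in the other 3 CTL mice. The difference between the responses of the treatments, as a log2 fold change, was 1.59 (-0.70 to 3.89) for Ccl2, 1.60 (-0.84 to 4.03) for Ccl7, 1.63 (-0.88 to 4.14) for Ccl5, 0.64 (-0.50 to 1.77) for Ccl6 and 0.14 (-1.31 to 1.60) for Ccl12. That Ccl6 and Ccl7 passed in one treatment only is therefore not shown to be a difference between treatments.

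In sdCAMs Ccl6 was the member that differed most between treatments against its error. Contralaterally it was at 1205 (C2), 523 (C3), 818 (C4) and 1435 (D1) CPM in BLZ945 and at 480.0 (A2), 332 (A3), 335 (A4) and 621 (B1) CPM in CTL, a log2 fold change of 1.17 (SE 0.320, 0.49 to 1.85). The ranges overlapped only through C3 and B1, as C3 lay under B1. The unadjusted p was 0.00228 and the adjusted p 0.759 by edgeR, and over the alternatives the adjusted p lay between 0.0524 with DESeq2 and 1 with all 16 libraries. Ipsilaterally Ccl6 was at 1248, 1123 and 1625 CPM in BLZ945 and at 665, 499.9 and 1096 CPM in CTL, without overlap, a log2 fold change of 0.82 (0.04 to 1.60, adjusted p = 0.838). The share of all genes so separated with these few mice was not counted.

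Ccl9 was at 618 ± 338 CPM in BLZ945 and 342 ± 132 CPM in CTL contralaterally (SD, n = 4), a log2 fold change of 0.86 (-0.09 to 1.80, adjusted p = 0.759). Ccl8 was at 262 ± 149.7 CPM and 116 ± 29.1 CPM ipsilaterally (SD, n = 3), a log2 fold change of 1.18 (0.20 to 2.16, unadjusted p = 0.0215 and adjusted p = 0.838 by edgeR, 0.62 without D1). For Ccl12 it was -0.07 (-1.40 to 1.26) ipsilaterally and 0.54 (-0.62 to 1.69) contralaterally. In the interaction the sdCAM values were 0.87 (-0.41 to 2.16) for Ccl8 and 1.38 (-0.49 to 3.24) for Ccl24, and the call of Ccl8 in one treatment is not shown to differ from the other. Monocyte markers summed to at most 347 CPM in contralateral CTL and to 229 to 1532 CPM in contralateral BLZ945 sdCAMs, and neutrophil markers to 304 to 771 CPM and 253 to 3095 CPM (8 of 8 above 0 in each). Their part in the treatment differences of Ccl6 and Ccl9 was not tested.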

How the data were processed

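Bulk RNA-seq of 32 libraries from 8 mice was analysed. The authors aligned reads with STAR 2.7.11a and counted them on genes with featureCounts 2.0.8, and deposited the counts, not normalized, in separate tables for the 2 materials. Whether the counting used strand, and which of the builds in the methods served these libraries, is not given in the sources used here, so members were matched by symbol, and lengths and positions come from GENCODE M21 and RefSeq. Mouse, hemisphere and material come from the sample titles, and the treatment from the treatment label of each sample. For tissue of A3 titles and column names give opposite hemispheres.

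Genes with summed counts under 8 (tissue) or 7 (sdCAMs) were removed before testing. The main test was edgeR 4.0.16 (R 4.3.3, limma 3.58.1) with TMM and a mean per group of treatment and hemisphere, two-sided. Mice served as replicates, so p-values measure the spread between mice. All libraries carry a single batch label, so no within-batch values could be had. Log2 CPM used a prior count of 2. Same-mouse libraries deviated together in tissue (median r = 0.440 over 8 mice, lowest 0.211) and less in sdCAMs (0.127 over 6 mice, lowest 0.0509), and because they come from one animal the mouse served as a block in an alternative. Replicates within a group differed by 4.49 to 139 times the sampling variance, so none was a copy of another library of its group. Libraries of different groups were not compared in this way.

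Named genes were all members, up to 3 called genes per list and comparison that reach 1 CPM on average, and the 3 genes most like Ccl2, Ccl5 and Ccl24. Members and lists were chosen with earlier results of these data known. Alternatives were DESeq2 1.42.0 and its size factors, no filter, filterByExpr, no fold threshold, CPM without TMM, the block, each mouse left out, only the groups compared, A3 exchanged and all 16 sdCAM libraries. Scaling to macrophage and microglia markers and leaving out 3 libraries high in choroid plexus markers were added after seeing the data. Results of 1 receptor, and counts over the receptor list, are not reported here.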

Additional observations from a re-analysis of the deposited data

Results flagged for a closer look

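In 9 of the 60 member and group combinations with 4 mice, 1 mouse lay far from the other 3. For independent, normally distributed values chance gives about 1 in 20. Several of these values rest on a few counts and the combinations share mice, so the 9 cannot be weighed against that rate. In tissue these were B1 for ipsilateral Ccl3 (4.70 CPM) and Ccl9 (20.4 CPM) in CTL, A2 for contralateral Ccl8 (0.0793 CPM) and Ccl9 (1.66 CPM) in CTL, C2 for ipsilateral Ccl24 (0.378 CPM) and contralateral Ccl5 (1.07 CPM) in BLZ945, and D1 for contralateral Ccl4 (0.0936 CPM) and Ccl7 (0.281 CPM) in BLZ945. In sdCAMs it was contralateral C2 for Ccl5 (75.3 CPM) in BLZ945. The values of Ccl4 and Ccl8 are 1 read each.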

How the results depend on the processing

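DESeq2, its size factors in edgeR, no filter, filterByExpr and no fold threshold each called 5 (tissue CTL), 7 (tissue BLZ945), 0 (sdCAM CTL) and 1 (sdCAM BLZ945) members between hemispheres, and no alternative called a member between treatments or in the interaction. Leaving out 1 mouse at a time gave 2 to 5, 3 to 7, 0 and 0 to 1 members. In tissue, only the groups compared gave 3 in CTL, and A3 exchanged gave 0 in CTL and 0 in BLZ945. The replicate block gave 1 in sdCAM CTL and 2 in sdCAM BLZ945, through Ccl12, and beside these and Ccl6 in tissue CTL it changed no other call of a member. All 16 libraries, macrophage scaling and leaving out the 3 choroid plexus libraries each gave 0 in sdCAM BLZ945. CPM without TMM moved no mean by more than its SD. The cause of these changes was not tested.

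No member that passed without the block changed direction in an alternative run. Log2 fold changes that turned sign were, in tissue CTL, Ccl8 -1.42 and Ccl24 -0.28 with A3 exchanged, and, leaving out 1 mouse at a time, Ccl5 (-0.046 without B1, up to 0.72) and Ccl24 (-0.093 without B1, up to 1.57). In sdCAM CTL, Ccl24 ranged from -0.17 (without A3) to 0.49 (without B1), and was -0.23 with all 16 libraries, -0.28 with macrophage scaling and -0.17 without the choroid plexus libraries. In sdCAM BLZ945, leaving out 1 mouse at a time gave Ccl2 -0.44 to 0.52, Ccl3 -0.17 to 0.22, Ccl4 -0.060 to 0.45 and Ccl5 -0.58 to 0.48. Ccl5 was -0.041 with DESeq2 and -0.040 with its size factors, and Ccl3 was 0.64 with the block. All 16 libraries gave Ccl2 -0.22, Ccl4 -0.077 and Ccl5 -0.18, and leaving out the choroid plexus libraries Ccl2 -0.65, Ccl4 -0.48, Ccl5 -0.30 and Ccl7 -0.40. Macrophage scaling gave Ccl2 -0.95, Ccl4 -0.93, Ccl5 -1.05, Ccl6 -0.66, Ccl7 -0.74, Ccl9 -0.27 and Ccl12 -0.27.

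Over all genes the main test called 84 up in tissue CTL and 213 in tissue BLZ945, DESeq2 137 and 332, the block 178 and 378, and A3 exchanged 0 and 6. In sdCAM CTL the main test called 78 up and 432 down, DESeq2 272 and 1490, all 16 libraries 3 and 202, and macrophage scaling 1 and 614. In sdCAM BLZ945 it called 220 up and 807 down, DESeq2 451 and 1972, all 16 libraries 4 and 424, and macrophage scaling 0 and 4194. Without the 3 choroid plexus libraries the counts were 9 and 106 in CTL and 1 and 126 in BLZ945, the block called 23 and 270 in sdCAM CTL, and only the groups compared gave 46 up in sdCAM CTL and 143 up in sdCAM BLZ945.

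With 3 or 4 mice a group, and Ccl5, Ccl8 and Ccl24 near the floor in tissue, intervals were wide.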
